A study of Mus musculus with 8 samples.

Results

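The comparison of fat-1 with wild-type (WT) mouse hearts was examined over both surgeries together, which used all 8 of 8 RNA-sequencing libraries of the series, 4 of each genotype. The fat-1 mouse carries fat-1, a gene of the worm Caenorhabditis elegans for a desaturase that makes n-3 from n-6 fatty acids, and the WT mice, labelled strain C57BL/6, were littermates of the same transgenic colony. Both genotypes were 3 months old at surgery and underwent either transverse aortic constriction (TAC), which loads the left ventricle with pressure, or a sham operation without the constriction. WT-Sham and WT-TAC are the WT groups and Fat1-Sham and Fat1-TAC the fat-1 groups, with 2 independent samples in each, and a library is named by its group and number, as in WT-TAC1. The promoter that drives the transgene was not given in the sources used here, the fat-1 transcript was not analysed here so that the genotype labels were not checked against it, and the tissue is ventricle in the labels and whole heart in the methods. The question was which mRNAs stood on the same side of WT in sham and in TAC hearts, and genes were chosen for description because all 4 fat-1 values lay on one side of all 4 WT values, among the 13222 of 25929 listed genes that reached 1 FPKM in at least 4 libraries. FPKM is the number of fragments scaled to transcript length and to the depth of the library. This separated 729 genes.

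Mammals have no enzyme that turns n-6 into n-3 polyunsaturated fatty acids, and the worm desaturase supplies one. The n-6 arachidonic acid is the substrate of cyclooxygenases, lipoxygenases and cytochrome P450 enzymes, which make prostaglandins, leukotrienes and other oxylipins, and n-3 acids compete for the same enzymes. In the pressure-loaded heart, fibroblasts deposit collagen and matricellular proteins, chemokines and adhesion molecules bring in leukocytes, and the energy supply of the cardiomyocyte rests on mitochondrial fatty acid oxidation.

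Depth was 14163994 to 21218331 fragments per library. The library WT-TAC1 stood apart from the other 7. The cardiomyocyte markers summed to 19780 FPKM in it and to 35930 to 44280 FPKM elsewhere, thymocyte markers summed to 1641 FPKM against at most 3.03 FPKM elsewhere, and airway epithelium markers were at 1665 FPKM in WT-TAC1 and 3958 FPKM in WT-TAC2 against 2.47 to 52.5 FPKM in the other 6. Its median of ratios to the other libraries was 1.52, the others lay between 0.868 and 1.11, and it was the highest WT library for 60.4% of the tested genes. Atrial markers also differed by genotype. The 5 atrial genes Myl7, Myl4, Sln, Nppa and Bmp10 summed to 1031 to 3801 FPKM in the WT libraries and to 25.8, 35.7 and 52.8 FPKM in 3 fat-1 libraries, while the fat-1 library Fat1-Sham1, with 1323 FPKM, lay within the WT range. Of the 5, 5 had a lower fat-1 mean (against 75.5% of all tested genes) and 0 separated the genotypes (against 4.47% lower and 1.04% higher). These genes mark atrial muscle in the adult heart, so that 5 libraries labelled as ventricular tissue held atrial transcripts and 3 held few. Results are therefore given with the values of WT-TAC1 and Fat1-Sham1 in view, and counts without them. In bulk tissue, fewer cells of a type and less RNA per cell cannot be told apart.

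**Figure D1:**
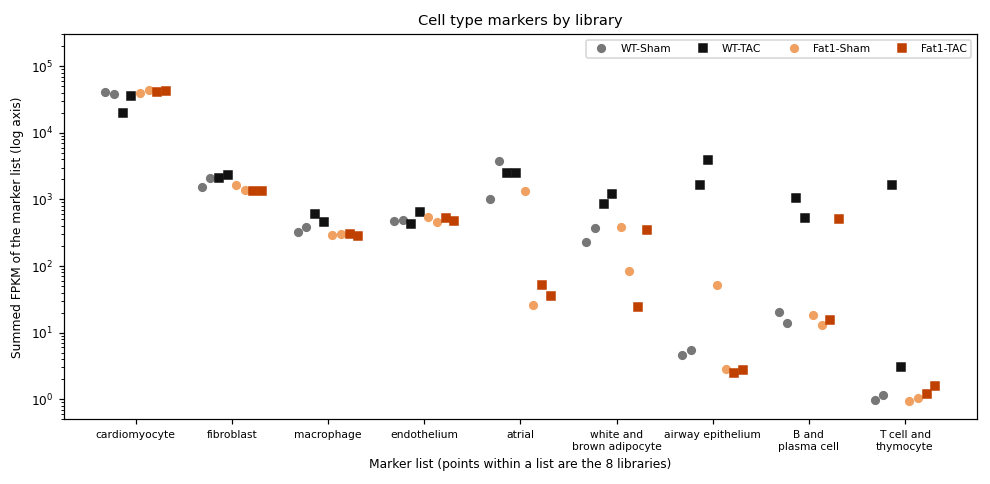
Summed FPKM of 9 marker lists (log axis) in the 8 libraries, circles for sham and squares for TAC, grey and black for WT and light and dark orange for fat-1. The atrial sum of Fat1-Sham1 (1323 FPKM) lies among the WT libraries, and the thymocyte sum of WT-TAC1 (1641 FPKM) lies alone.

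No gene passed the test over all genes. Limma on log2(FPKM + 1), with genotype and surgery as terms, called 0 genes higher and 0 genes lower in fat-1 (0% of 13222 genes in either direction). A call needed a change of more than 1.5-fold and a p below 0.1 after Benjamini-Hochberg adjustment, and no adjusted p was below 0.434. Before adjustment, 36 genes with that size of change were higher (0.272%) and 679 were lower (5.14%) in fat-1 hearts with limma p below 0.05. The ranges of the genotypes did not overlap for 138 genes that were higher (1.04%) and for 591 that were lower (4.47%), so 81.07% of the separated genes were lower. Of the 353 tested genes at 1 FPKM in exactly 4 libraries, 14 were separated lower and 1 higher. These passed the filter only through the genotype where they were high. An exact two-sided permutation test of a single gene that exchanges genotypes within each surgery has 36 arrangements and cannot give a p below 0.0556, so separation is a description and not a test. Limma-voom on the recovered whole fragments also called 0 genes, and before adjustment 58 genes were higher and 1079 lower by the same limits. Single libraries moved the count: without WT-Sham1 limma called 3 genes higher and 147 lower, and without Fat1-Sham1 it called 0 higher and 12 lower.

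The excess of lower genes depended on how the libraries were scaled. With the FPKM as deposited, the median log2 difference of all tested genes was -0.20 over both surgeries, -0.01 in sham and -0.38 in TAC, and 75.5% of genes had a lower fat-1 mean. After scaling by the median of ratios the median moved to 0.02, a shift of the whole scale, and 47.2% of genes were lower. The genotypes then separated for 431 genes that were higher (3.26%) and 353 that were lower (2.67%), so 45.03% of the separated genes were lower, and quantile normalization gave 35.21%. Of the 138 higher genes 78 stayed separated under the median of ratios, and of the 591 lower genes 215 did. Separation under the deposited, median of ratios and quantile scales together held for 74 higher and 129 lower genes. Without WT-TAC1, 189 genes were higher and 648 lower. Without both WT-TAC1 and Fat1-Sham1, a choice made after seeing the data, 342 were higher and 1181 lower. That choice left 1 library in WT-TAC and 1 in Fat1-Sham. It also removed the only fat-1 library with WT-like atrial markers, so genotype and atrial level cannot be told apart in what remains.

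Thrombospondin 1 had the widest gap between the genotypes of all separated genes. Thbs1 (ENSMUSG00000040152, chr2:118111876-118127133, plus strand, GRCm38) encodes a matricellular glycoprotein that activates latent TGF-beta and inhibits angiogenesis. Its level was 12.4 and 11.8 FPKM in the WT-Sham libraries, 12.1 and 18.2 FPKM in WT-TAC, 4.27 and 5.22 FPKM in Fat1-Sham, and 3.72 and 5.77 FPKM in Fat1-TAC. The lowest WT library stood well above the highest fat-1 library, and WT-TAC2 was the highest of all. The genotype means were 13.6 ± 3.04 and 4.74 ± 0.925 FPKM (SD, n = 4), 2.87-fold lower in fat-1, with a log2 difference of -1.34 (standard error 0.19, limma adjusted p = 0.434). The difference was -1.20 in sham and -1.49 in TAC, and the difference between these was -0.29 (standard error 0.38, limma adjusted p = 0.675). It was -1.12 under the median of ratios. Fat1-Sham1, the fat-1 library with WT-like atrial markers, had 4.27 FPKM. With the atrial marker level as a covariate the log2 difference of Thbs1 was -1.46 (standard error 0.36). The atrial level nearly follows genotype and only Fat1-Sham1 breaks this, so estimates with this covariate rest largely on that library. The part of atrial tissue in Thbs1 was not tested.

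Of 16 pathway lists, that of the extracellular matrix held the most genes without overlap between the genotypes. Of 44 tested members, 12 were lower in all 4 fat-1 libraries (27.3%, against 4.47% of all genes) and 0 were higher. A lower fat-1 mean was found for 41 (93.2%, against 75.5%), and the median log2 difference was -0.67 against -0.20 for all genes. Under the median of ratios 9 members were lower (20.5%, against 2.67%), the same as 9 of the 12, and the median was -0.44 against 0.02. None of these members passed the test over all genes, and 24 were lower at an unadjusted p under 0.05 with the fold change (against 5.14% of all genes). The 12 were the fibrillar collagens Col1a1, Col1a2, Col3a1 and Col5a2, the small leucine-rich proteoglycan Fmod, the microfibril-associated proteins Mfap4 and Mfap5, Dpt and Comp, which organise collagen fibrils, Timp1, an inhibitor of matrix metalloproteinases, Ccn2, a connective tissue growth factor, and Thbs1.

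Mfap5 (ENSMUSG00000030116, chr6:122505845-122529290) had 29.4 and 45.2 FPKM in WT-Sham, 37.5 and 40.0 FPKM in WT-TAC, 18.4 and 19.2 FPKM in Fat1-Sham, and 20.8 and 19.5 FPKM in Fat1-TAC. The fat-1 libraries lay close together, and the genotypes differed by -0.92 in sham and -0.91 in TAC on the log2 scale (overall -0.92, standard error 0.14, limma adjusted p = 0.434). Timp1 (ENSMUSG00000001131, chrX:20870166-20874735) had 3.21 and 6.10 FPKM in WT-Sham, 8.88 and 5.32 FPKM in WT-TAC, 2.03 in both Fat1-Sham libraries, and 1.93 and 1.80 FPKM in Fat1-TAC. Its fat-1 values were narrow (1.95 ± 0.109 FPKM, SD, n = 4) and its WT values were spread (5.88 ± 2.34 FPKM). Fmod (ENSMUSG00000041559) had 12.1, 23.7, 21.3 and 22.7 FPKM in WT-Sham1, WT-Sham2, WT-TAC1 and WT-TAC2, against 9.21, 6.69, 6.21 and 8.93 FPKM in Fat1-Sham1, Fat1-Sham2, Fat1-TAC1 and Fat1-TAC2, and Comp (ENSMUSG00000031849) had 12.8, 35.4, 29.4 and 34.8 against 10.6, 6.02, 9.67 and 8.19 FPKM.

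The collagens separated by less. Col1a1 (ENSMUSG00000001506, chr11:94936224-94953042), a chain of type I collagen, had 64.6 and 106 FPKM in WT-Sham, 124 in both WT-TAC libraries, 60.4 and 60.8 FPKM in Fat1-Sham, and 57.7 and 55.5 FPKM in Fat1-TAC. WT-Sham1 lay close above the fat-1 libraries, and the other WT libraries lay far above. The log2 difference was -0.45 in sham and -1.12 in TAC (overall -0.78, standard error 0.19, limma adjusted p = 0.434). Col3a1 (ENSMUSG00000026043), the type III chain, had 149 and 234, 243 and 223 FPKM in the WT libraries and 143 and 132, 103 and 113 FPKM in the fat-1 libraries in the same order. Ccn2 (ENSMUSG00000019997) was between 35.3 and 52.9 FPKM in WT, at 33.4 and 21.3 FPKM in Fat1-Sham and at 16.5 and 14.9 FPKM in Fat1-TAC, and it was not separated under the median of ratios. The proteoglycan Vcan, outside the list, was between 6.93 and 10.04 FPKM in WT and between 4.36 and 4.78 FPKM in fat-1, 1.73-fold lower. It was not separated under the median of ratios or quantile normalization.

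The fibroblast markers moved with this group. Of 7, 7 had a lower fat-1 mean, as did 75.5% of all tested genes. Col1a1, Col3a1 and Pdgfra separated the genotypes (42.9%, against 4.47%), 2 of them matrix genes themselves, and 2 markers did under the median of ratios (28.6%, against 2.67%). The sum of the 7 markers was 1545 to 2352 FPKM in WT and 1344 to 1626 FPKM in fat-1, with Fat1-Sham1 the highest fat-1 library and no defining marker at 0, and the part of fibroblast number in the matrix result was not tested. Pdgfra alone was 19.1 to 23.3 FPKM in WT and 15.1 to 18.6 FPKM in fat-1, a smaller log2 difference (-0.32) than that of Thbs1 or Mfap5, and it was not separated under the median of ratios.

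**Figure D2:**
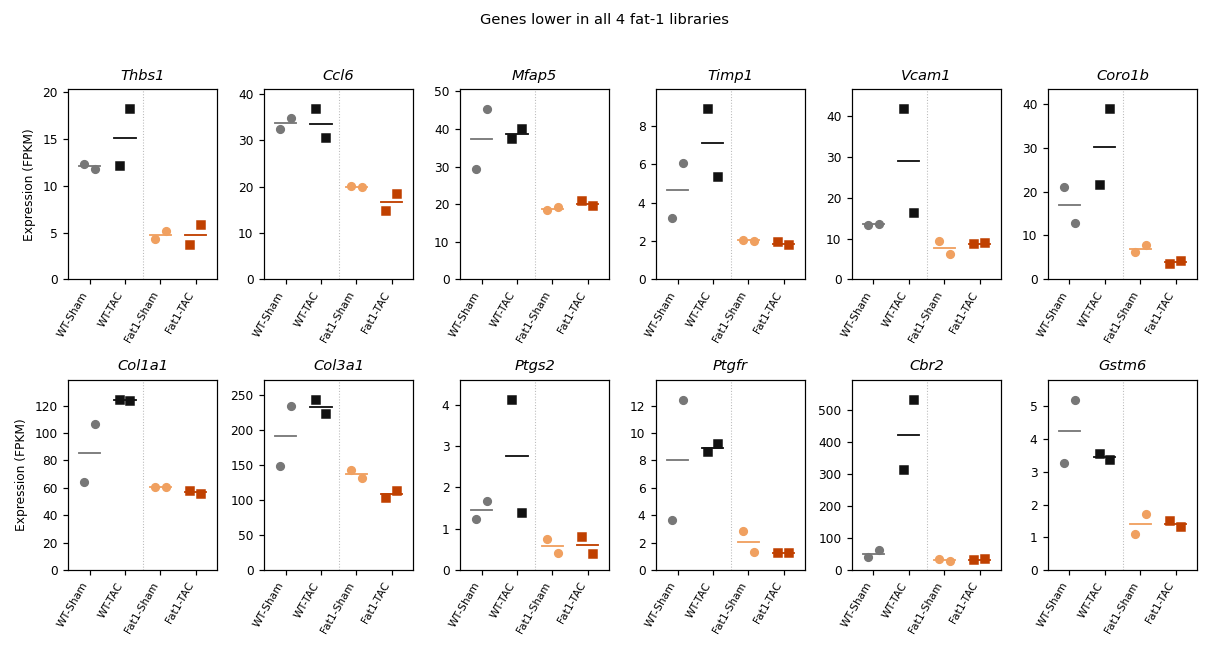
FPKM of 12 genes that were lower in all 4 fat-1 libraries, by group, with a point for each library and a bar at the mean of 2. Thbs1, Ccl6 and Mfap5 differ alike in sham and TAC, whereas Cbr2 differs mostly in TAC (312 and 529 FPKM in WT-TAC).

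The list of inflammation and innate immunity had the next largest count. Of 37 tested members, 8 were lower in all 4 fat-1 libraries (21.6%, against 4.47%) and 0 higher. A lower fat-1 mean was found for 35 (94.6%, against 75.5%), and the median log2 difference was -0.61. Under the median of ratios 5 were lower (13.5%, against 2.67%) and 1 was higher (2.7%, against 3.26%). Among the 8 were the chemokines Ccl6, Ccl7, Ccl9 and Ccl11, the endothelial adhesion molecule Vcam1, the lipopolysaccharide co-receptor Cd14 and the cytokine signalling inhibitor Socs3. Ccl6, Ccl7, Ccl9 and Ccl11 lie on chromosome 11 between 82045712, the start of Ccl7, and 83593087, the end of Ccl6, so the 4 are not at unlinked places.

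Ccl6 (ENSMUSG00000018927, chr11:83587882-83593087, minus strand) encodes a macrophage chemokine. It had 32.5 and 34.8 FPKM in WT-Sham, 36.7 and 30.6 FPKM in WT-TAC, 20.1 and 19.97 FPKM in Fat1-Sham, and 14.7 and 18.5 FPKM in Fat1-TAC. The groups did not overlap in either surgery, with a log2 difference of -0.85 (standard error 0.13, limma adjusted p = 0.434), -0.72 in sham and -0.98 in TAC. Ccl11 (ENSMUSG00000020676, chr11:82057823-82062955), eotaxin, which attracts eosinophils, had 7.18 and 7.32, 22.7 and 10.1 FPKM in WT-Sham and WT-TAC, and 2.39 and 2.79, 5.10 and 5.91 FPKM in Fat1-Sham and Fat1-TAC. Both genotypes had more of it after TAC, and the genotype difference was -1.20 in sham and -1.33 in TAC.

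Vcam1 (ENSMUSG00000027962, chr3:116109949-116129688) had 13.2 and 13.7 FPKM in WT-Sham, 41.6 and 16.2 FPKM in WT-TAC, 9.36 and 6.09 FPKM in Fat1-Sham, and 8.55 and 8.89 FPKM in Fat1-TAC. WT-TAC1 was far above the other 3 WT libraries, and without it the log2 difference was -0.78 (standard error 0.14, limma adjusted p = 0.257) against -1.12 with it. Socs3 was likewise at 23.1 FPKM in WT-TAC1, at 6.67 to 8.53 FPKM in the other WT libraries and at 3.97 to 6.01 FPKM in fat-1. Ccl7 went the other way over surgery, with 6.08 and 3.06 FPKM in WT-Sham, 2.83 and 2.15 FPKM in WT-TAC, and 1.38 to 1.87 FPKM in fat-1, and Cd14 was 5.34 to 9.14 FPKM in WT and 4.08 to 4.53 FPKM in fat-1. Ccl7 and Cd14 were not separated under the median of ratios.

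The 6 macrophage markers moved with this list. All 6 had a lower fat-1 mean, as did 75.5% of all tested genes. Adgre1, C1qa, C1qb and Lyz2 separated the genotypes as deposited (66.7%, against 4.47%), C1qb and Lyz2 also under the median of ratios (33.3%, against 2.67%), in a short list. The sum of the 6 markers was 326, 391, 605 and 457 FPKM in the WT libraries and 280 to 303 FPKM in the fat-1 libraries, which did not overlap (exact within-surgery permutation p = 0.0556, two-sided, the smallest this design can give). No marker of the 6 was at 0 in any library, and the part of macrophage number in the chemokine values was not tested. C1qb, a chain of the complement starter C1q, was within 48.0 to 49.99 FPKM in the fat-1 libraries and 55.9 to 95.2 FPKM in the WT libraries.

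Enzymes and receptors of the eicosanoid pathway, where the fatty acid substrates of the 2 genotypes differ by design, were the third list by count. Of 36 tested members, 6 were lower in all 4 fat-1 libraries (16.7%, against 4.47%) and 0 were higher. A lower fat-1 mean was found for 28 (77.8%, near the 75.5% of all tested genes). The median log2 difference was -0.49, with -0.13 in sham and -0.66 in TAC. For all genes these medians were -0.20, -0.01 and -0.38. Under the median of ratios 6 were lower (16.7%, against 2.67%), 5 of them the same, and the median was -0.29. The 6 were Ptgs2, the inducible cyclooxygenase, Ptgfr, the receptor of prostaglandin F2alpha, Ptgr1, which reduces and inactivates prostaglandins and leukotriene B4, Cbr2, a carbonyl reductase, Cyp1b1, a cytochrome P450 that oxidises arachidonic acid, and Alox5ap, the membrane protein that presents arachidonic acid to 5-lipoxygenase.

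Ptgs2 (ENSMUSG00000032487, chr1:150100031-150108227) was low in all libraries, with 1.23 and 1.66 FPKM in WT-Sham, 4.11 and 1.39 FPKM in WT-TAC, 0.748 and 0.404 FPKM in Fat1-Sham, and 0.801 and 0.389 FPKM in Fat1-TAC. Every fat-1 value was below 1 FPKM and every WT value above it, so Ptgs2 passed the filter only through the WT libraries. Its separation is partly fixed by that filter. It was 3.58-fold lower by means, with a log2 difference of -0.89 (standard error 0.26, limma adjusted p = 0.434), which the pseudocount of 1 shrinks at these levels. Ptgfr (ENSMUSG00000028036, chr3:151796502-151837630) had 3.61 and 12.4 FPKM in WT-Sham, 8.64 and 9.18 FPKM in WT-TAC, 2.82 and 1.31 FPKM in Fat1-Sham, and 1.26 and 1.23 FPKM in Fat1-TAC. WT-Sham1 was lowest in WT and Fat1-Sham1 highest in fat-1, as for the atrial marker sum, and with the atrial level as a covariate its log2 difference was -0.80 (standard error 0.48) against -1.77 (standard error 0.35) without. Alox5ap had 4.08, 2.94, 4.80 and 4.69 FPKM in the WT libraries and 1.23, 2.31, 2.76 and 2.84 FPKM in the fat-1 libraries, with the lowest value in Fat1-Sham1, and it did not separate under the median of ratios.

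Cbr2 was the member whose difference lay mostly in TAC. It had 40.0 and 61.1 FPKM in WT-Sham, 312 and 529 FPKM in WT-TAC, and 28.3 to 35.6 FPKM in fat-1, a log2 difference of -0.62 in sham and -3.65 in TAC (limma adjusted p of the TAC comparison = 0.0221). In the fit of 4 groups, which estimates the spread from all 8 libraries, it was 1 of 4 genes called within TAC, with Wfdc2 (adjusted p = 0.0167), Krt8 (0.0855) and Scgb3a1 (0.0397), all lower in Fat1-TAC, and 0 genes were called within sham. With the TAC libraries alone, limma called 28 genes lower, among them Cbr2, Wfdc2, Scgb3a1 and the 5 atrial markers and not Krt8. Wfdc2 had 34.9 and 70.7 FPKM in WT-TAC and between 0.419 and 1.70 FPKM in the other 6 libraries, and these 4 genes were high in the libraries that also held the airway epithelium markers, of which Krt8 is itself 1. The airway sum of 9 markers was 4.67 to 3958 FPKM in WT and 2.47 to 52.5 FPKM in fat-1, where Scgb3a2 was at 0 in 3 libraries and Bpifa1 in 1, and its part in Cbr2 was not tested. Over all genes, the interaction of genotype and surgery was called for 0 genes (smallest limma adjusted p = 0.27, and 769 genes at an unadjusted p under 0.05 with the fold change).

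Other enzymes of the pathway overlapped between genotypes. The constitutive cyclooxygenase Ptgs1 was 7.54 to 14.0 FPKM in WT and 5.70 to 8.66 FPKM in fat-1 (log2 difference -0.60, limma adjusted p = 0.436). Alox5, 5-lipoxygenase itself, was 6.34 to 11.8 FPKM in WT and 8.58 to 10.7 FPKM in fat-1, a log2 difference of 0.04 (standard error 0.17). Alox15 was 0.397 and 0.232 FPKM in WT-Sham, 7.52 and 5.21 FPKM in WT-TAC, and 0.339 to 1.94 FPKM in fat-1, and Ephx2, the soluble epoxide hydrolase, was 44.1 to 102 FPKM in WT and 85.8 to 113 FPKM in fat-1.

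**Figure D3:**
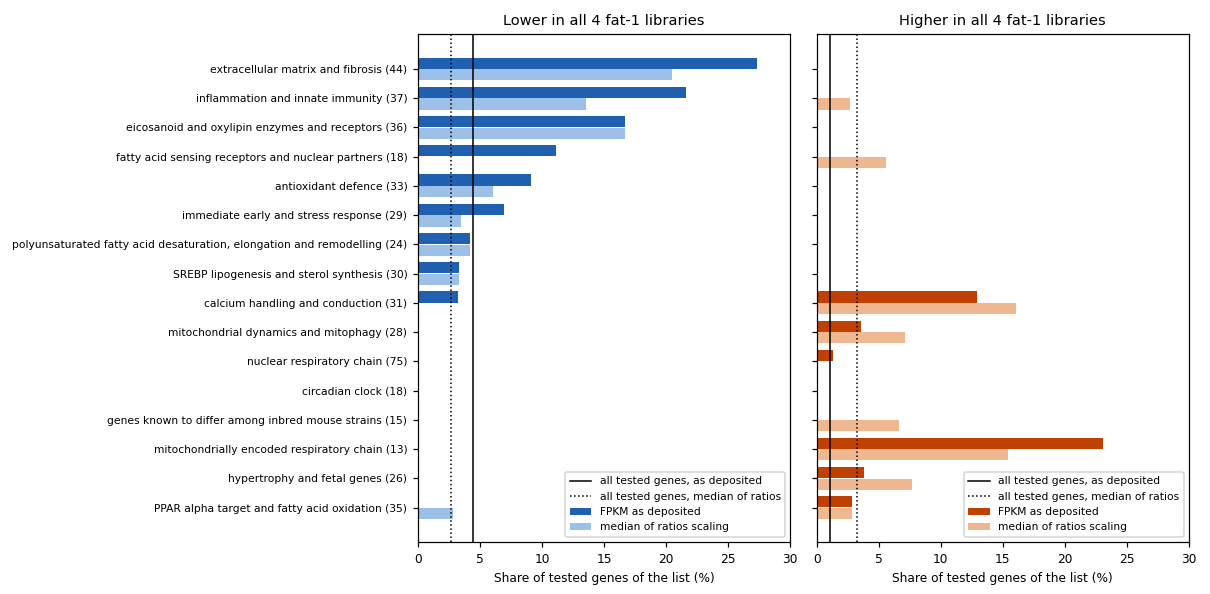
Share of the tested genes of each of 16 pathway lists (number tested in brackets) that were lower or higher in all 4 fat-1 libraries, as deposited and after median of ratios scaling, with lines at the share of all tested genes. The matrix, inflammation and eicosanoid lists have the longest bars for lower genes (27.3%, 21.6% and 16.7% as deposited).

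The desaturases and elongases of the mouse did not separate the genotypes, except Elovl1. Of 24 tested genes of polyunsaturated fatty acid desaturation, elongation and remodelling, 1 was lower in all fat-1 libraries (4.17%, against 4.47%) and 0 higher. Fads1, the delta-5 desaturase, was 4.72 to 13.4 FPKM in WT and 5.22 to 7.06 FPKM in fat-1, with a log2 difference of 0.10 in sham and -0.83 in TAC. Fads2, the delta-6 desaturase, was 3.51 to 10.5 FPKM in WT and 3.19 to 6.03 FPKM in fat-1 (overall -0.48, standard error 0.26, limma adjusted p = 0.452). Elovl1, which elongates saturated and monounsaturated very long chains, was 16.7 to 28.9 FPKM in WT and 12.9 to 15.7 FPKM in fat-1, a log2 difference of -0.52.

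Among 18 fatty acid sensing receptors and their nuclear partners, 2 were lower in all fat-1 libraries as deposited (11.1%, against 4.47% of all genes, with few genes in the list), Nr1h3, the liver X receptor alpha, by -0.25 and Cmklr1, a receptor of chemerin and resolvin E1, by -0.36 on the log2 scale, and neither separated under the median of ratios, where 1 other member was higher. Under quantile normalization the difference of Nr1h3 was 0.02, where the median of all genes moved from -0.20 to 0.06, a shift of the whole scale of about the same size. Of 35 targets of PPAR alpha and genes of fatty acid oxidation, 1 was higher (Etfdh, 2.86%, against 1.04%) and 0 lower (against 4.47%) as deposited. Under the median of ratios 1 was higher (2.86%, against 3.26%) and 1 lower (2.86%, against 2.67%). Before adjustment, 1 member was higher and 3 were lower with limma p below 0.05 and the 1.5-fold change (against 0.272% and 5.14% of all genes). Ppara itself was 18.6 to 35.3 FPKM in WT and 21.6 to 37.7 FPKM in fat-1 (log2 difference 0.08, standard error 0.21). Fabp3, the heart fatty acid binding protein, was 2804 and 2436 FPKM in WT-Sham, 1362 and 2467 FPKM in WT-TAC, 2632 and 3066 FPKM in Fat1-Sham and 3955 and 3553 FPKM in Fat1-TAC, with a log2 difference of 0.12 in sham and 1.03 in TAC.

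Other PPAR targets overlapped between the genotypes. Angptl4, an inhibitor of lipoprotein lipase, had 8.76 and 9.60 FPKM in WT-Sham, 18.5 and 17.4 FPKM in WT-TAC, 16.9 and 5.70 FPKM in Fat1-Sham, and 3.16 and 3.73 FPKM in Fat1-TAC, and its log2 difference was 0.11 in sham and -2.10 in TAC (interaction -2.20, limma adjusted p = 0.50). Pck1, a gluconeogenic enzyme of liver and adipose tissue, had 26.0 to 102 FPKM in WT and 61.2, 7.14, 0.204 and 13.9 FPKM in Fat1-Sham1, Fat1-Sham2, Fat1-TAC1 and Fat1-TAC2. The adipocyte marker sum was 226 to 1207 FPKM in WT and 384, 84.4, 24.4 and 344 FPKM in the same fat-1 libraries. All 7 tested markers had a lower fat-1 mean (against 75.5% of all tested genes), and the part of adipose tissue in Pck1 was not tested.

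Of 33 genes of antioxidant defence, 3 were lower in all fat-1 libraries (9.09%, against 4.47%) and 0 higher. As a list they were not lower than other genes. A lower fat-1 mean was found for 21 (63.6%, against 75.5%), and the median log2 difference was -0.04 against -0.20 for all genes. Under the median of ratios 2 members, Gpx1 and Gstp1, were lower (6.06%, against 2.67%), and the median was 0.21 against 0.02. Gpx1 (ENSMUSG00000063856, chr9:108338903-108340343), which reduces peroxides with glutathione, had 103 and 139 FPKM in WT-Sham, 165 and 149 FPKM in WT-TAC, 90.6 and 75.2 FPKM in Fat1-Sham, and 75.4 and 77.0 FPKM in Fat1-TAC, a log2 difference of -0.78 (standard error 0.15, limma adjusted p = 0.434). Txn1, thioredoxin, had 161 FPKM in WT-TAC1, 68.7 to 72.7 FPKM in the other WT libraries and 55.7 to 65.9 FPKM in fat-1, and it did not separate under the median of ratios. Gstp1 was 2.93 to 7.73 FPKM in WT and 1.06 to 2.36 FPKM in fat-1, but its paralog Gstp2 is nearly identical and the counting could split their reads. Outside the list, the glutathione transferase Gstm6, a member of a gene cluster of the same kind, was 3.28 to 5.20 FPKM in WT and 1.09 to 1.71 FPKM in fat-1, 2.74-fold lower.

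Further genes had wide gaps without belonging to a list. Coro1b (ENSMUSG00000024835, chr19:4148619-4154035), an actin-binding coronin of migrating cells, had 21.1 and 12.8 FPKM in WT-Sham, 21.6 and 38.7 FPKM in WT-TAC, 6.13 and 7.78 FPKM in Fat1-Sham, and 3.51 and 4.23 FPKM in Fat1-TAC. It was 4.35-fold lower in fat-1, the log2 difference was -1.88 (standard error 0.34, limma adjusted p = 0.434), and Fat1-Sham1 was not the highest fat-1 library. S100a10, the partner of annexin A2, was 68.6 to 144 FPKM in WT and within 47.9 to 50.4 FPKM in fat-1. C7, a terminal complement component, was 12.5 to 27.5 FPKM in WT and 6.73 to 9.26 FPKM in fat-1.

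Zfp57, a zinc finger protein that maintains imprints, was 3.23 to 3.66 FPKM in WT and 1.26 to 2.21 FPKM in fat-1, without the spread of the other genes in WT, but it did not separate under the median of ratios. Arl4a, a small GTPase, was 11.4 to 18.7 FPKM in WT, 7.07 and 8.06 FPKM in Fat1-Sham, and listed at 0 in Fat1-TAC1 and 4.65 FPKM in Fat1-TAC2. The metalloprotease Adamts8 was 1.03 to 4.39 FPKM in WT and 0.241 to 0.530 FPKM in fat-1, and the lipoprotein receptor Lsr was 1.26 to 1.93 FPKM in WT and 0.347 to 0.718 FPKM in fat-1. Adamts8 and Lsr passed the filter only through the WT libraries. Ppp1r1b, the phosphatase inhibitor DARPP-32, had a larger ratio of means (14.9-fold lower), with 4.21, 20.6, 17.8 and 21.6 FPKM in the WT libraries and 2.74, 0.172, 0.764 and 0.648 FPKM in the fat-1 libraries. Its WT minimum and fat-1 maximum were WT-Sham1 and Fat1-Sham1, the libraries with the lowest and highest atrial sums of their genotypes, and its log2 difference was -2.97 (standard error 0.53) and -1.15 (standard error 0.54) with the atrial level as a covariate.

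The position of Fat1-Sham1 was counted over all separated genes. It was the highest fat-1 library for 252 of the 591 lower genes (42.6%) and for 27.7% of all tested genes, and WT-Sham1 was the lowest WT library for 67.7% of the lower genes and 60.2% of all tested genes. With the atrial marker level added to the fit, 0 genes were called and 43 were lower and 27 higher at an unadjusted p under 0.05 with the fold change. That fit rests largely on Fat1-Sham1, the only fat-1 library with a WT-like atrial level, so it separates atrial level from genotype poorly. In that fit Ccl6 had a log2 difference of -0.77 (standard error 0.25), Mfap5 of -0.82 (0.27), Ccl11 of -1.34 (0.44), Timp1 of -0.83 (0.43), Col1a1 of -0.45 (0.33) and Ptgs2 of -0.48 (0.46). Of the 12 genes called lower when Fat1-Sham1 was left out, 4 were atrial markers. WT-TAC1 was the highest WT library for 70.4% of the lower genes and for 60.4% of all tested genes.

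Sham and TAC hearts share no library, so their genotype differences are separate measurements, although mice of a genotype were of the same colony. Across the 13222 genes, which are not independent replicates, the 2 differences had a Pearson's r of 0.354, and 58.4% of genes had the same sign in both. For the separated genes, the same direction in both surgeries is fixed by how they were chosen and is not a repeat finding. Of the 591 lower genes, 70 were more than 1.5-fold lower in sham and in TAC. The share of all tested genes beyond that size in both was not counted. Under all 3 scalings 37 of the 70 were separated, among them Thbs1, Ccl6, Mfap5, Timp1, Vcam1 and Ccl11, and also Ptgs2, which passed the filter only through WT. Of the 138 higher genes, 3 were over 1.5-fold higher in both.

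**Figure D4:**
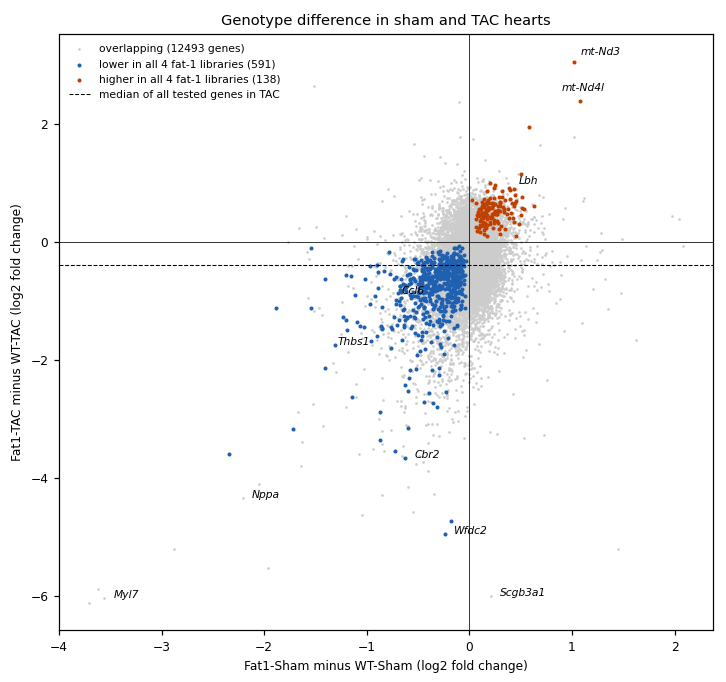
Log2 genotype difference (fat-1 minus WT) in TAC against that in sham for 13222 genes, with genes lower in all 4 fat-1 libraries in blue, higher ones in red and the others in grey. Most points lie below 0 on the TAC axis, where the median is -0.38, and the sham median is -0.01.

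Higher genes were fewer as deposited and had smaller differences. Their median log2 difference was 0.37, and 20 of 138 were over 1.5-fold higher by means, whereas the 591 lower genes had a median of -0.51 and 335 of them were over 1.5-fold lower. WT-TAC1 was the lowest WT library for 124 of the 138 (89.9%) and for 19.8% of all tested genes. Mitochondrially encoded genes led the higher group. Of 13 tested respiratory chain genes of the mitochondrial genome, 3 were higher in all fat-1 libraries (23.1%, against 1.04%) and 2 under the median of ratios (15.4%, against 3.26%). Over both surgeries together all 13 had a higher fat-1 mean. Their median log2 difference was -0.08 in sham and 0.90 in TAC, so as a list they were higher in TAC and not in sham.

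The subunit of complex I mt-Nd3 (ENSMUSG00000064360, positions 9459 to 9806 of the mitochondrial genome) had 303 and 325 FPKM in WT-Sham, 74.5 and 150 FPKM in WT-TAC, 891 and 456 FPKM in Fat1-Sham, and 1210 and 652 FPKM in Fat1-TAC. It was 3.76-fold higher in fat-1 by means, and its log2 difference was 1.02 in sham and 3.06 in TAC (overall 2.04, standard error 0.47, limma adjusted p = 0.434). Its neighbour mt-Nd4l (positions 9877 to 10173) had 128 and 88.2, 47.0 and 91.3 FPKM in WT-Sham and WT-TAC, and 283 and 178, 468 and 257 FPKM in Fat1-Sham and Fat1-TAC. The third, mt-Co2 of complex IV, was 371 to 1296 FPKM in WT and 1354 to 3795 FPKM in fat-1. In fat-1, the first library of each group was above the second for all 3 genes. The genes are short and have copies in the nuclear genome, which makes their counts uncertain. Mitochondrially encoded genes took 11.7% of fragments in WT-TAC1, 19.3% to 27.5% in the other WT libraries and 23.5% to 27.6% in fat-1 (exact within-surgery permutation p = 0.222, two-sided).

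Nuclear genes of the respiratory chain showed almost no separation. Of 75 tested, 1 was higher as deposited (1.33%, against 1.04%), Cyc1 of complex III, and 0 under the median of ratios, while 74 had a higher fat-1 mean. Cyc1 was 613 and 592 FPKM in WT-Sham, 341 and 589 FPKM in WT-TAC and 621 to 652 FPKM in fat-1, so WT-TAC1 alone lay far below. The median log2 difference of the list was -0.03 in sham and 0.48 in TAC. Cox11, an assembly factor that brings copper to complex IV, had a wider gap, with 10.9 and 11.4, 7.62 and 11.1 FPKM in WT-Sham and WT-TAC and 14.0 and 16.9, 14.0 and 15.2 FPKM in Fat1-Sham and Fat1-TAC.

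Genes of calcium handling and conduction held 4 of 31 higher members (12.9%, against 1.04%) and 5 under the median of ratios (16.1%, against 3.26%). In the other direction 1 was lower (3.23%, against 4.47%) and 0 under the median of ratios, and 7 had a lower fat-1 mean. At an unadjusted limma p under 0.05 with the fold change, 1 was higher and 3 were lower (against 0.272% and 5.14% of all genes). Kcnip2 (ENSMUSG00000025221, chr19:45791839-45816061), the beta subunit of the transient outward potassium channel, had 97.3 and 93.3 FPKM in WT-Sham, 48.8 and 105 FPKM in WT-TAC, 131 and 130 FPKM in Fat1-Sham, and 120.5 and 130.5 FPKM in Fat1-TAC. Without WT-TAC1 its log2 difference was 0.37 (standard error 0.08, limma adjusted p = 0.282) against 0.62 with it. Jph2, which ties the sarcoplasmic reticulum to the T-tubule, was 127 and 135, 72.3 and 138 FPKM in WT and 145 to 172 FPKM in fat-1, and the calcium channel subunit Cacna2d1 was 29.0 to 47.1 FPKM in WT and 49.3 to 60.7 FPKM in fat-1. Asph, whose locus also encodes junctin of the sarcoplasmic reticulum, was 54.1 to 88.5 FPKM in WT and 91.2 to 98.4 FPKM in fat-1.

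The cardiomyocyte markers, 8 of 8 with a higher fat-1 mean and 0 separated, moved with these genes. Their sum was 19780 FPKM in WT-TAC1, 35930 to 41470 FPKM in the other WT libraries and 40250 to 44280 FPKM in fat-1 (exact within-surgery permutation p = 0.111, two-sided), no marker was at 0, and their part in the values of Kcnip2 and Jph2 was not tested. The transcription factor Gata4, the single higher member of 26 hypertrophy and fetal genes (3.85%, against 1.04%, and 2 members or 7.69% against 3.26% under the median of ratios), was 55.1 and 65.4, 29.7 and 58.4 FPKM in WT and 75.1 and 86.4, 66.2 and 66.6 FPKM in fat-1.

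**Figure D5:**
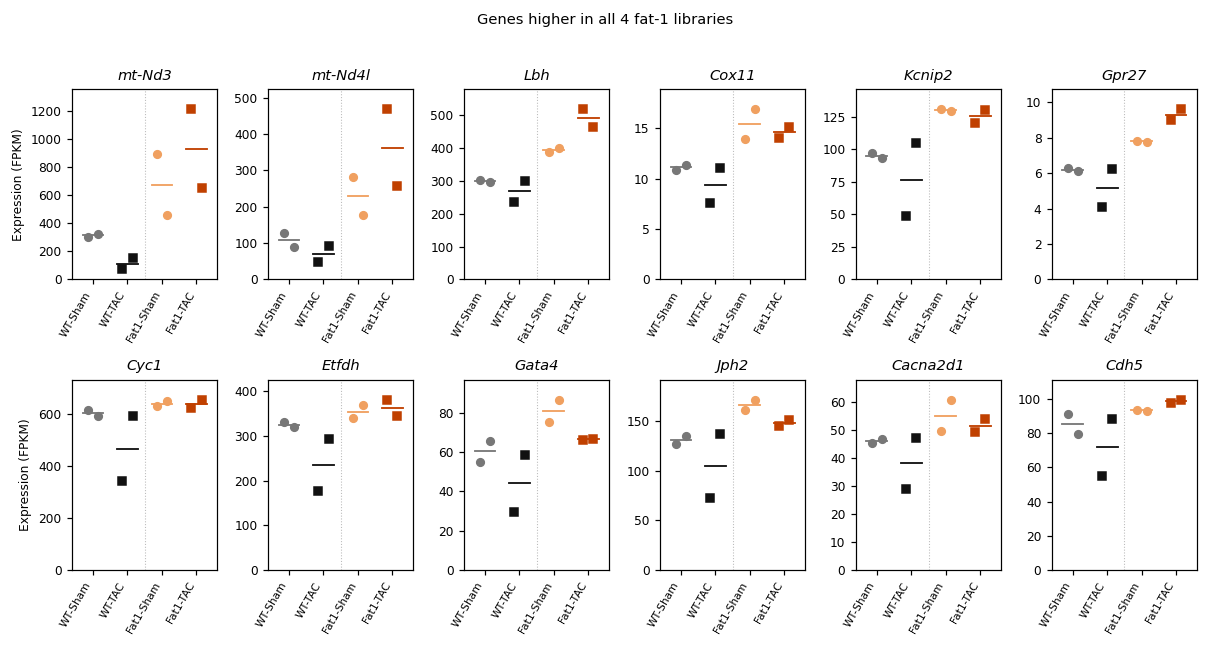
FPKM of 12 genes that were higher in all 4 fat-1 libraries, by group, with a point for each library and a bar at the mean of 2. Lbh is at 237 to 304 FPKM in WT and 389 to 518 FPKM in fat-1, and for Cyc1, Etfdh, Jph2 and Cdh5 the lowest point is WT-TAC1.

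Outside these lists, Lbh (ENSMUSG00000024063, chr17:72918305-72941947), a transcription cofactor expressed in limb bud and heart, had 304 and 296 FPKM in WT-Sham, 237 and 300 FPKM in WT-TAC, 389 and 399 FPKM in Fat1-Sham, and 518 and 464 FPKM in Fat1-TAC. The ratio of means was 1.56, and the log2 difference was 0.64 (standard error 0.14, limma adjusted p = 0.434), with 0.39 in sham and 0.88 in TAC. Gm43535, a locus of unknown coding status (chr9:110974432-110974595), was 3.08 to 4.30 FPKM in WT and 5.61 to 9.07 FPKM in fat-1. Itgb6, the beta subunit of an integrin that activates TGF-beta, was 3.77 to 6.59 FPKM in WT and 7.63 to 11.8 FPKM in fat-1, and the orphan receptor Gpr27 was 4.10 to 6.27 FPKM in WT and 7.75 to 9.60 FPKM in fat-1.

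Bdnf, a neurotrophin, was 1.11 to 1.95 FPKM in WT and 2.34 to 3.37 FPKM in fat-1, with a log2 difference of 0.50 in sham and 0.46 in TAC. Smco4 was 14.8 to 17.4 FPKM in WT and 19.6 to 25.5 FPKM in fat-1, and Gipc3 was 1.43 to 1.66 FPKM in WT and 1.98 to 3.28 FPKM in fat-1. For these 3 genes WT-TAC1 was the lowest WT library only in Bdnf. The endothelial cadherin Cdh5 was 55.1 to 91.2 FPKM in WT and 92.7 to 99.3 FPKM in fat-1 and did not separate under the median of ratios. 3425401B19Rik was 9.84 to 19.0 FPKM in WT and 21.8 to 24.9 FPKM in fat-1. The remaining 3 of the 15 widest gaps were the antisense RNA 0610025J13Rik, the processed pseudogene Gm12439 and the locus Gm44669, whose reads other genes can share. Gm44669 passed the filter only through the fat-1 libraries.

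Of 15 tested genes known to differ among inbred mouse strains, 0 were lower (against 4.47%) and 0 higher (against 1.04%) as deposited. Under the median of ratios 1 was higher (6.67%, against 3.26%). The list is too short for 0 to differ from these shares, and strain background was not tested. Nnt, which is defective in C57BL/6J mice, was 0.353 to 0.676 FPKM in WT and 0.622 to 0.860 FPKM in fat-1 and was not tested. Of 18 clock genes, likewise a short list, 0 separated (against 4.47% lower and 1.04% higher of all genes). Of 29 immediate early and stress genes 2 were lower, Egr3 and Fkbp5 (6.9%, near the 4.47% of all genes). Both had their highest value in WT-TAC1, 75.5 FPKM for Fkbp5 against 9.59 to 17.8 FPKM in the other WT libraries. Egr3 passed the filter only through the WT libraries. Over the nuclear chromosomes, the share of lower genes ran from 2.90% on chromosome 14 to 6.31% on the X chromosome. A tested neighbour on the chromosome was also lower for 12.2% of the lower genes and for 8.69% of all tested genes.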

How the data were processed

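RNA from 8 mouse hearts, 2 in each of 4 groups, was sequenced on an Illumina HiSeq after library preparation with a NEBNext Ultra kit. The authors passed reads through quality control, mapped clean reads to the reference and deposited FPKM values for 25929 genes. The submitters' processing notes name HISAT2 and the builds mm10 and GRCm38, and versions, counting program and strand setting were not given in the sources used here. Gene names, types and coordinates are those of GENCODE M21 (GRCm38), which matched 25873 genes. Whole fragments were recovered at 1 length per gene for 25928 genes (tolerance 0.01 fragments), which gave the depth. Depth limits low genes, and fragments without molecular identifiers are not independent molecules.

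Limma (version 3.58.1, R 4.3.3; lmFit, eBayes with a trend) was run on log2(FPKM + 1) with genotype and surgery as terms and all 8 libraries, over the genes that reached 1 FPKM in 4 or more libraries. Fold changes on this scale understate low genes. A call needed a change of more than 1.5-fold and p below 0.1 after Benjamini-Hochberg adjustment. Named genes were the 15 widest gaps in each direction among called and among separated genes, separated members of the lists, the 3 smallest p in each direction and, whatever their values, 11 genes of fatty acid and eicosanoid metabolism and Nnt, and Wfdc2 and Scgb3a1 were added after their values were seen. The members, lists and rules were chosen with earlier results of these data known. The procedure was tested on simulated data. Alternatives were other scalings, pseudocounts, filters, models and left-out libraries. Some genes are not reported here.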

Additional observations from a re-analysis of the deposited data

Results flagged for a closer look

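In 32 of the values reported here a single library stood apart from the other 3 of its genotype, relative to their spread, by a gap test that chance passes in about 1 in 20 groups. The test was run in each genotype, sham and TAC together, for the named genes and marker sums. The number of groups was not counted, so 32 cannot be set against that share. Most were in WT-TAC1. Among lower genes, WT-TAC1 was high for Vcam1 (41.6 FPKM), S100a10 (144 FPKM), Ptgs2 (4.11 FPKM), Egr3 (4.34 FPKM), Socs3 (23.1 FPKM), Fkbp5 (75.5 FPKM) and Txn1 (160.5 FPKM), and low for Zfp57 (3.23 FPKM). Among higher genes, WT-TAC1 was low for Lbh (237 FPKM), Cox11 (7.62 FPKM), Gpr27 (4.10 FPKM), Itgb6 (3.77 FPKM), Bdnf (1.11 FPKM), Gm12439 (8.01 FPKM), Jph2 (72.3 FPKM), Cacna2d1 (29.0 FPKM), Asph (54.1 FPKM) and Cyc1 (341 FPKM). The thymocyte marker sum was high in the same library (1641 FPKM).

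Fat1-Sham1 was flagged above the other fat-1 libraries for Ptgfr (2.82 FPKM), Gpx1 (90.6 FPKM) and the sums of atrial (1323 FPKM), fibroblast (1626 FPKM), airway epithelium (52.5 FPKM) and nerve and glia markers (10.4 FPKM). For Gpx1 and the fibroblast sum the step was small, as the other fat-1 libraries lay close together, at 75.2 to 77.0 FPKM and 1344 to 1381 FPKM. Each other library had 1 to 3 such values, except WT-Sham1 and Fat1-Sham2, which had 0. Thbs1 was high in WT-TAC2 (18.2 FPKM), Gstm6 (5.20 FPKM) and Adamts8 (4.39 FPKM) were high and Gm44669 (0.646 FPKM) low in WT-Sham2, Kcnip2 was low in Fat1-TAC1 (120.5 FPKM), which also had the highest share of fragments on mitochondrially encoded genes (27.6%), and the B and plasma cell marker sum was high in Fat1-TAC2 (515 FPKM).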

How the results depend on the processing

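The 0 calls in either direction held under median of ratios and quantile scaling, scaling without mitochondrially encoded genes, a pseudocount of 0.1, both other filters, the fits without surgery or trend, voom, sham libraries only, the atrial covariate and the fit with a replicate block (0 higher, 0 lower). The same replicate numbers did not pair samples (correlations of deviations -0.174 to 0.028). Called genes were 63 higher and 816 lower with array weights, 2 lower with 4 group means, 28 lower with TAC libraries only (against 4 within TAC in the fit of 4 groups) and 28 lower without WT-TAC1 and Fat1-Sham1, the last chosen after seeing the data. Leaving out 1 library at a time gave 0 to 3 called higher and 0 to 147 lower, and 184 to 329 separated higher and 648 to 3118 lower. Separated genes were 431 higher and 353 lower under the median of ratios, 519 and 282 under quantile normalization, 2139 and 2136 with sham libraries only, 1295 and 7468 with TAC libraries only, and 342 and 1181 without WT-TAC1 and Fat1-Sham1. Genes above 0 in 1 library gave 197 higher and 1016 lower, and fewer libraries separate more genes by construction. Leaving out both WT-TAC libraries gave 686 higher and 800 lower and the median of ratios without WT-TAC1 gave 565 higher and 568 lower, both added after seeing the data, as was the atrial covariate. The causes of the other shifts were not tested.

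Of 2266 log2 differences of 88 named genes under alternatives, 2244 kept their direction, 94 newly passed the threshold (69 with array weights) and 22 in 7 genes reversed. Reversed values were 0.016 for Nr1h3 under quantile normalization, 0.10 for Fads1, 0.11 for Angptl4, 0.34 for Alox15 and -0.087 for Alox5 with sham libraries only and also without both WT-TAC libraries, and 0.19 for Fads1, 0.25 for Pck1, 0.49 for Angptl4, -0.11 for Alox5 and 0.078 for Alox15 with the atrial covariate. Ppara was -0.090 with TAC libraries only, -0.17 without WT-TAC1 and Fat1-Sham1, and -0.060 to 0.30 when 1 library was left out, negative without WT-Sham2 or WT-TAC1. Alox5 was -0.12 with array weights, -0.032 without WT-TAC1 and Fat1-Sham1, and -0.088 to 0.13 when 1 library was left out, negative without WT-TAC1 or Fat1-TAC2. With 2 libraries per group, genes near 1 FPKM rest on few fragments.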

Other observations

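Erythroid markers were lower in fat-1 in 6 of 6 genes by means, as were 75.5% of all tested genes. Of the 6, 5 were lower at an unadjusted limma p under 0.05 with a 1.5-fold change (against 5.14% of all genes), and 0 separated the genotypes. The sum of the 6 was 5037 to 10600 FPKM in WT and 4250 to 6210 FPKM in fat-1, so the ranges overlapped (exact within-surgery permutation p = 0.111, two-sided). Mesothelial markers summed to 30.8 to 60.4 FPKM in WT and 18.1 to 32.6 FPKM in fat-1, and Msln, mesothelin, separated the genotypes, at 11.4 to 26.3 FPKM in WT and 5.65 to 10.6 FPKM in fat-1. Markers of nerve and glia summed to 9.36 to 26.3 FPKM in WT and 4.32 to 10.4 FPKM in fat-1, and the ranges overlapped. Endothelial markers summed to 431 to 646 FPKM in WT and 464 to 541 FPKM in fat-1, which overlapped.

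The libraries Fat1-TAC2, WT-TAC1 and WT-TAC2 held 515, 1055 and 530 FPKM of B and plasma cell markers, and the other 5 libraries between 12.9 and 20.2 FPKM.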
